A study of Mus musculus with 17 samples.

Results

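RUNX1 sites at the ends of protein-coding genes that were called in every RUNX1 library, with and without the leukaemia fusion protein Cbfb-Myh11 (CM), numbered 1912 of 21664 RUNX1 sites. They were chosen by the RUNX1 peak calls themselves. Peaks of the 8 RUNX1 lists were merged where they overlapped by 1 bp, and a site was kept if all 8 lists called it and if it overlapped a window reaching 1 kb to either side of a gene's start or end on mm10. RUNX1 calls, scores and ranks at these sites are therefore described without a test, while CHD7 calls, sequence and position took no part in the choice.

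Binding of RUNX1 and of the chromatin remodeller CHD7 was mapped by ChIP-seq in the 416B line of mouse myeloid progenitors. All cells carried a plasmid with a tetracycline silencer (tTS) and transactivator (rtTA), and the fusion cells also carried the type A Cbfb-Myh11 cDNA joined through an F2A element to mCherry behind a tetracycline-responsive element. Control cells had the same plasmid without CM. There were 4 conditions, each with 2 replicate libraries per antibody: control cells without doxycycline (Control -Dox) or with it (Control +Dox), and fusion cells without it (CM -Dox) or with it (CM +Dox). The dose of doxycycline was 1 ug/ml, over 24 hours. Both cell types were grown from single sorted cells, how many clones were used is not stated, and CM levels come from the transgene and not from the rearranged gene. Nothing states that replicates were separate cultures, so the p-values below speak only of the spread among these libraries, and that spread may be technical. An IgG sample was not analysed here.

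RUNX1 binds DNA together with its partner CBFB, and in blood progenitors it sits both at distal enhancers and at promoters. CM joins CBFB to the tail of smooth muscle myosin and marks the acute myeloid leukaemia that carries an inverted chromosome 16. It still binds RUNX1. CHD7 is a chromodomain helicase that moves nucleosomes and is known for its part in neural crest and blood development. ETS factors and SP-family factors bind many promoters that are active in most cell types, the latter at GC boxes.

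Promoter sequence under these sites is shown first, because the letters of these promoters differed with the way RUNX1 ranked once CM was made. Each run holds the 250 bases before a RefSeq gene start (GRCm38.p6, the assembly that mm10 denotes), read 5′ to 3′ on the strand of the gene. Capitals mark the RUNX letters TGTGGT or TGCGGT, the ETS letters CCGGAAG and the GC box letters GGGCGG, on either strand. The genes were picked as examples after their letters were seen. The first 6 lie under sites called in all 8 libraries.
Orc5, subunit of the origin recognition complex, chr5:22550339-22550588, minus strand: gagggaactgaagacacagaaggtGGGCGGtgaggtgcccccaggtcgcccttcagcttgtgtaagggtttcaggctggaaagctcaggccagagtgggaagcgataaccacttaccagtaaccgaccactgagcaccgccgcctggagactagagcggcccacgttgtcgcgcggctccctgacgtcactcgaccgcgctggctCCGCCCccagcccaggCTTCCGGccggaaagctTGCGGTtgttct
Msh6, DNA mismatch repair protein, chr17:87974800-87975049, plus strand: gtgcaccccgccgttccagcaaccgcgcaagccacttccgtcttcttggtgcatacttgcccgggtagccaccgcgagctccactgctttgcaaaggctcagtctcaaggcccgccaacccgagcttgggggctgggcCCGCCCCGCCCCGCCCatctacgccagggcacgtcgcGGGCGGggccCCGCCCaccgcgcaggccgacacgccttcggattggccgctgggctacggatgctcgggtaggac
Nus1, subunit of the enzyme that makes dolichol, chr10:52417297-52417546, plus strand: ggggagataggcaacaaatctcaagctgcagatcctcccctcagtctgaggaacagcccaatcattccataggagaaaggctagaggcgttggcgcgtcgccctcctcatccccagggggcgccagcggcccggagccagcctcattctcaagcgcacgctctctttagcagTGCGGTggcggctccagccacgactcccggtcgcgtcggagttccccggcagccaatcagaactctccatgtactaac
Cdv3, chr9:103365781-103366030, minus strand: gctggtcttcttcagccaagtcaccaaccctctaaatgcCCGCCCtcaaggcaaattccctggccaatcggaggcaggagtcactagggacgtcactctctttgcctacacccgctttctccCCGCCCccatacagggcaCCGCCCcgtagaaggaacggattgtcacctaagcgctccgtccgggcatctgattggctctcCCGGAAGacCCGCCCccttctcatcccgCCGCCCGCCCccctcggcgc
Parl, mitochondrial rhomboid protease, chr16:20302363-20302612, minus strand: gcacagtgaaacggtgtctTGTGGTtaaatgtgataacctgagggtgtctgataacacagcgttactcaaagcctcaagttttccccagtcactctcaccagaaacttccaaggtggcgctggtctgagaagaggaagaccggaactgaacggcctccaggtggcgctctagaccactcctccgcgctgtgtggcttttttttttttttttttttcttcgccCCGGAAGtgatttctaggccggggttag
Eif3g, translation initiation factor subunit, chr9:20898591-20898840, minus strand: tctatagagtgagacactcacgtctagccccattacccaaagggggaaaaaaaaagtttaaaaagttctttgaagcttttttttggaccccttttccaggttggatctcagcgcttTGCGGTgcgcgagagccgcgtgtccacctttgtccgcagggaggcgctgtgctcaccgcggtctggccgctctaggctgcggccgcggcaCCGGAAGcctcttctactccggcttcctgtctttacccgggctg
The 2 that follow lie under gene-end sites that all 6 libraries without CM called and neither CM +Dox library did (lost sites).
Cpa3, mast cell carboxypeptidase, chr3:20242182-20242431, minus strand: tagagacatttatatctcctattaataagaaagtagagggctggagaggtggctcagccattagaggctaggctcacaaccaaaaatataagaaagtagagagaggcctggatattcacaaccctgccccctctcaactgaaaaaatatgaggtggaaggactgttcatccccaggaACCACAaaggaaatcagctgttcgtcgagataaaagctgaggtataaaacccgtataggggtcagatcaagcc
Ccp110, centriole protein, chr7:118712293-118712542, plus strand: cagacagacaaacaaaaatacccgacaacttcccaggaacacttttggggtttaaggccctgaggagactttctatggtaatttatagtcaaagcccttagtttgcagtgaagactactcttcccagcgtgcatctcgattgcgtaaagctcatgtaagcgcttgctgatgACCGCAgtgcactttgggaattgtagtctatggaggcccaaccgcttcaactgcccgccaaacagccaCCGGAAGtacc
In the Orc5 promoter a RUNX match began at position -12 from the gene start and an ETS match at -29. The Msh6 promoter held 5 GC box matches and no RUNX match, and the 300-base window of Cdv3 held 7 GC box matches. The Parl and Eif3g promoters each held 1 RUNX and 1 ETS match and no GC box. The Cpa3 promoter held a RUNX match at position -73 and neither of the other motifs.

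The sites were the largest class of gene-end RUNX1 sites. Of 6498 gene-end sites, 1912 (29.4%) were called in all 8 libraries, 701 in 7 and 967 in 1. Over all 21664 RUNX1 sites, 4833 (22.3%) were called in all 8, and the rule itself used these calls. Of the 15166 distal sites, those that overlapped no such window, 2921 (19.3%) were called in all 8. Among 2603 gene-end sites that all 6 libraries without CM called, both CM +Dox libraries called 1912 (73.5%), 1 of them called 326 (12.5%) and neither called 365 (14.0%). Among 5928 such distal sites the shares were 49.3%, 16.7% and 34.1%. Gene-end sites called in all 6 were thus called with CM more often than distal ones, as a description of the calls that chose them.

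Read depth is unknown, since only peak lists were used, with 8140 to 16163 RUNX1 and 16323 to 37698 CHD7 peaks each. The CM +Dox RUNX1 lists were the shortest, at 8140 and 9710 peaks. The sites took 12.1% to 15.6% of the peaks of each RUNX1 list without CM, and 1946 of 8140 and 1945 of 9710 in the CM +Dox lists. RUNX1 lists ended at a p-value of 1e-09 in 5 libraries and 1e-07 in 3 (Control -Dox replicate 2, Control +Dox replicate 2 and CM +Dox replicate 1). A +Dox tag stands in the peak names of 1 list whose label is Control -Dox, RUNX1 replicate 1; it was kept as labelled, and without it 1914 sites met the rule.

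Within the lists, RUNX1 peaks at these sites were of middle rank. The rank is the percentile of the authors' peak score, the −log10 of its p-value, within its own list, with 100 the highest. The median rank of the 1912 sites was 69.3 and 50.9 in Control -Dox, 61.1 and 61.7 in CM -Dox, 69.2 and 44.9 in Control +Dox, and 68.1 and 65.3 in CM +Dox. For the 2921 distal sites called in all 8 it was 80.4 to 85.7 in the 6 libraries without CM, above the gene-end median in each, and 62.2 and 76.0 in CM +Dox. In CM +Dox replicate 1 the gene-end sites ranked above the distal ones, and in replicate 2 they did not. When only the 4833 sites called in all 8 were ranked against each other, gene-end sites made up 9.93% to 21.8% of the top 25% in the libraries without CM, and 42.2% and 24.7% in CM +Dox.

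**Figure D1:**
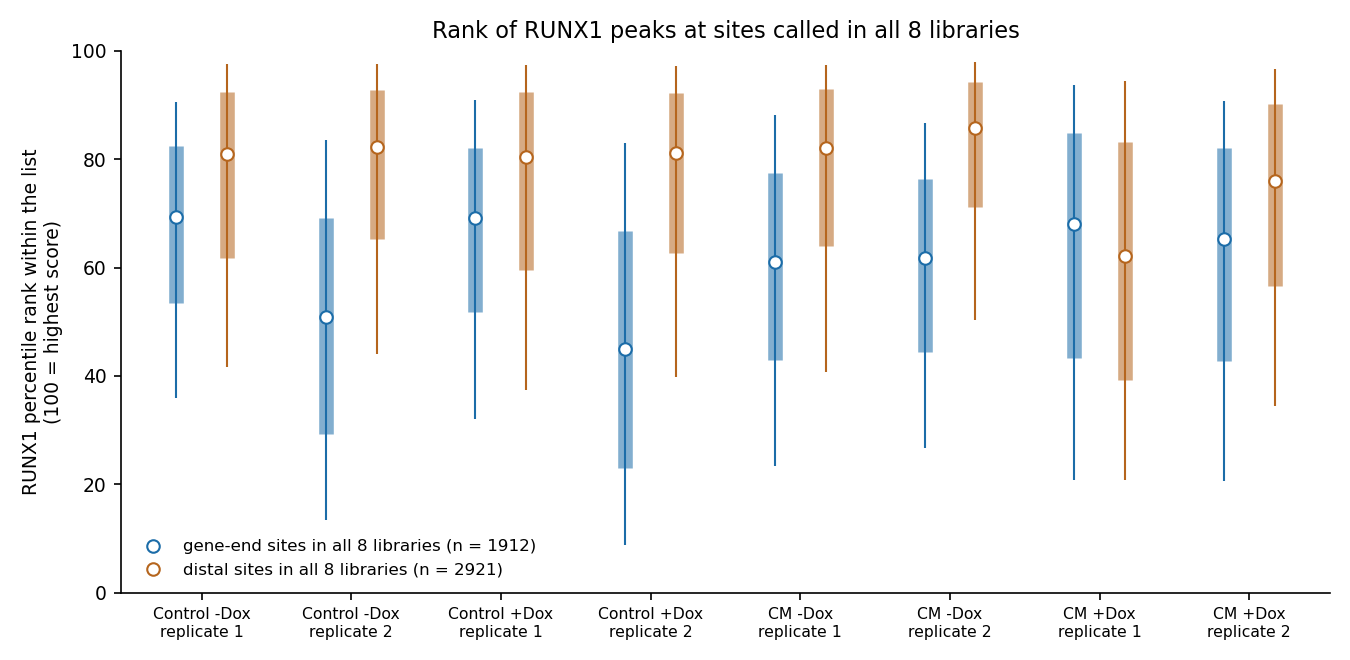
RUNX1 percentile rank (y axis, 100 the highest score of a list) in each of the 8 RUNX1 libraries (x axis) for gene-end and distal sites called in all 8. Circles are medians over sites, thick bars the 25th to 75th percentile and thin lines the 10th to 90th percentile; the gene-end median of 68.1 in CM +Dox replicate 1 lies above the distal median of 62.2, while in the other 7 libraries it lies below.

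From the 6 libraries without CM to the 2 with it, the mean rank was higher at 1155 (60.4%) of the gene-end sites and lower at 757, with a median difference of 6.68 points. At distal sites called in all 8 it was higher at 948 of 2921 (32.5%), with a median difference of -7.32. A rank moves with the rest of its list, and the CM +Dox lists were shorter. When every RUNX1 list was cut to the 8140 highest scores, 69.6% of the gene-end and 45.7% of the distal sites called in all 8 ranked higher with CM. With RUNX1 peaks scored below 29.1, the median over all 8 lists, removed, the shares were 51.2% and 34.3%.

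**Figure D2:**
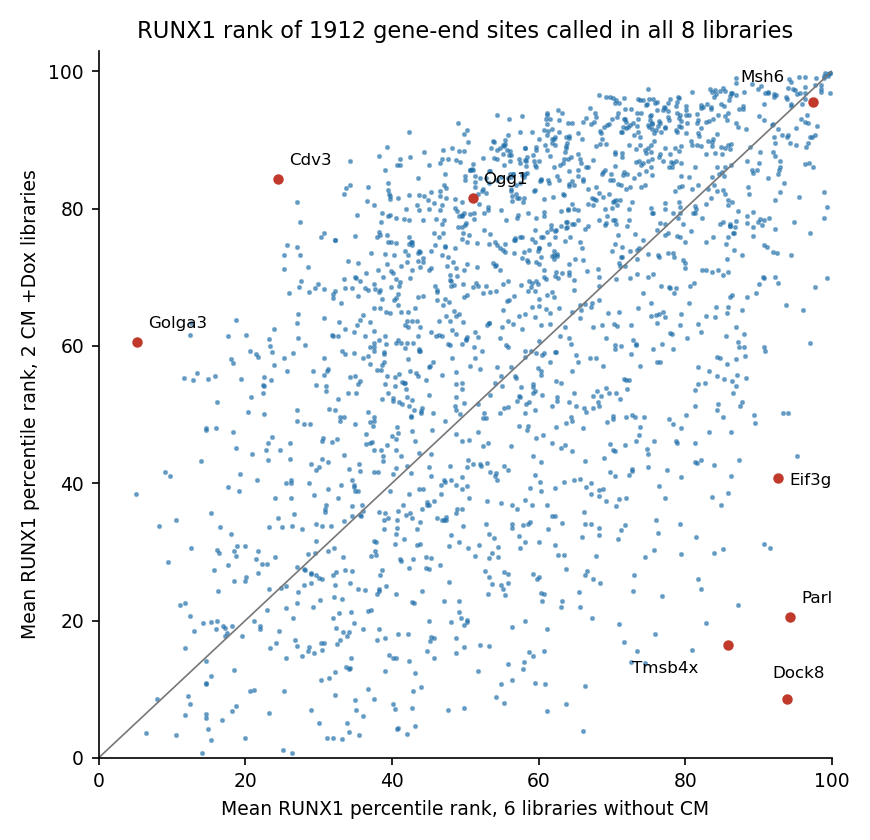
Mean RUNX1 percentile rank of each of the 1912 gene-end sites in the 6 libraries without CM (x axis) against the 2 CM +Dox libraries (y axis), 1 point per site. The line marks equal ranks, 1155 sites lie above it and 757 below, and some of the sites named in the text are in red with their gene.

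The sites with the largest difference downwards lay at Dock8, Parl, Tmsb4x, Il10 and Clec1b. The site at the start of Dock8 (chr19:24998554-24999626), whose product activates the small GTPase CDC42 in leukocytes, had deposited −log10 p values of 111 and 118 in Control -Dox, 103 and 158 in CM -Dox, 89.1 and 113 in Control +Dox and 13.0 and 11.8 in CM +Dox. Both CM +Dox values lie far below the other 6, though such values were not adjusted for read depth, and its mean rank was 93.9 without CM and 8.63 with it. At the start of Parl (chr16:20302249-20302756) the ranks were 96.7 and 91.0 in Control -Dox, 95.8 and 94.9 in CM -Dox, 94.0 and 93.4 in Control +Dox and 11.9 and 29.1 in CM +Dox. The deposited −log10 p at this site was at least 86.2 in each of the 6 libraries without CM and at most 23.1 in those with it. Tmsb4x encodes the actin-monomer-binding thymosin beta 4, and the site 473 bp from its end (chrX:167205712-167206620) had ranks of 88.1 and 86.1 in Control -Dox, 86.6 and 89.1 in CM -Dox, 83.5 and 81.3 in Control +Dox and 8.11 and 24.6 in CM +Dox. Il10 encodes an anti-inflammatory cytokine and Clec1b a platelet receptor for podoplanin. Their sites had mean ranks of 80.9 and 87.2 without CM and of 15.7 and 22.2 with it. At each of these sites the lowest rank without CM lay above the highest with it, which their choice by this difference favours.

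In the other direction the rule named Cdv3, Golga3, Gnaq, Hspbp1 and Usp25. The site at the start of Cdv3 (chr9:103365662-103366216), the promoter with 7 GC box matches, had RUNX1 ranks of 59.8 and 9.12 in Control -Dox, 29.9 and 39.7 in CM -Dox, 3.02 and 5.31 in Control +Dox and 87.7 and 80.8 in CM +Dox. The Control -Dox replicate 1 value stood above the other 5 without CM. At Golga3 (chr5:110176283-110177074), which encodes a golgin of the Golgi apparatus, the ranks were 11.3 and 2.82 in Control -Dox, 2.87 and 3.28 in CM -Dox, 5.03 and 6.36 in Control +Dox and 70.9 and 50.3 in CM +Dox. All 6 libraries without CM placed this peak near the bottom of their lists, and both with CM placed it above the middle. Gnaq encodes the G protein subunit alpha q, Hspbp1 a cofactor of the HSP70 chaperone and Usp25 a ubiquitin protease. Their mean ranks were 27.1, 34.3 and 12.6 without CM and 80.9, 86.9 and 63.3 with it.

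The 10 sites of highest mean rank over all 8 lists were high with CM too, which their choice favours, since the mean includes both CM +Dox lists. They lay at Atp6v0a1, Styk1, Cep70, P2ry14, Neurl3, Cfp, AI467606, Rgs18, Adcy9 and Sypl, with mean ranks from 98.3 to 99.8 over the 8 libraries. The site 769 bp from the start of Atp6v0a1 (chr11:101008034-101008653), a subunit of the proton pump of lysosomes, had deposited −log10 p values of 285 and 225 in Control -Dox, 244 and 272 in CM -Dox, 332 and 221 in Control +Dox and 256 and 355 in CM +Dox. In none of the 8 lists did this peak rank below 99.6. Cfp encodes the complement protein properdin, P2ry14 a receptor for UDP-glucose and Rgs18 a regulator of G protein signalling found in platelets. Rgs18 (chr1:144775251-144775802) differed most with CM, with ranks of 99.7 and 99.6 in Control -Dox, 99.7 and 99.7 in CM -Dox, 99.8 and 99.6 in Control +Dox and 96.0 and 97.8 in CM +Dox.

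CHD7, which the rule did not use, was called at a share of these sites that with CM lay inside the range without it. The share of the 1912 sites with a CHD7 peak was 47.9% and 62.9% in Control -Dox, 49.3% and 67.2% in CM -Dox, 50.6% and 54.0% in Control +Dox, and 49.6% and 65.3% in CM +Dox. The ranges overlap, and replicate 2 was the higher in each condition. The mean was 57.5% ± 11.1 (SD, n = 2) with CM and 55.3% ± 7.90 (n = 6) without, a difference of 2.15 percentage points (two-sided exact permutation test over 28 choices, p = 0.786; Benjamini-Hochberg adjusted p = 0.884 over 9 tests). Within replicate 1 the difference was 0.314 points and within replicate 2 it was 3.99. When every CHD7 list was cut to its 16323 highest scores and every RUNX1 list to 8140, which leaves 856 sites, it was -6.52 points (exact p = 0.143), and without CM +Dox CHD7 replicate 2 it was -5.72.

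Neither the uninduced construct nor doxycycline alone gave a difference beyond the spread of the replicates. CM -Dox exceeded Control -Dox by 2.85 points (58.2% ± 12.6 against 55.4% ± 10.6, SD, n = 2 each; exact permutation p = 0.667). Control +Dox differed from Control -Dox by -3.11 points (52.3% ± 2.40, n = 2; exact permutation p = 1.00). With 2 against 2 libraries the smallest p is 0.333, so these designs cannot reach 0.05. Leaving out Control -Dox CHD7 replicate 1 or CM -Dox CHD7 replicate 2 turned the first difference to -4.63 or -6.07, and leaving out Control -Dox CHD7 replicate 2 turned the second to 4.37.

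The mean CHD7 percentile rank over the sites, with 0 where no peak was called, was 31.1 to 46.3 without CM and 33.9 and 43.6 with it. The difference of 2.46 points did not pass the test (exact permutation p = 0.643, adjusted p = 0.857). It was -3.76 with the lists cut to equal length and -2.40 without CM +Dox CHD7 replicate 2.

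CHD7 was called less often at the gene-end sites than at distal RUNX1 sites called in all 8 libraries, in 8 of 8 CHD7 libraries. Distal shares were 59.6% and 74.3% in Control -Dox, 64.3% and 80.8% in CM -Dox, 63.2% and 71.5% in Control +Dox, and 55.5% and 69.8% in CM +Dox. The log2 odds ratio of gene-end against distal, with 0.5 added to each count, averaged -0.73 ± 0.29 (SD, n = 8; two-sided exact sign-flip permutation test, p = 0.00781, the smallest of 256 patterns; adjusted p = 0.0234). It lay between -1.10 and -0.68 in the libraries without CM, and at -0.34 and -0.29 in CM +Dox. The difference of 0.55 between CM +Dox and the other 6 was the largest of 28 choices (exact permutation p = 0.0357, the smallest possible) and did not pass 0.05 after adjustment (adjusted p = 0.0643). The gene-end share of CHD7 differed by 2.15 points with CM and the distal share by -6.30 points. With the lower-scoring part of the peaks of each antibody removed, the difference of the odds ratio was 0.38 (exact permutation p = 0.0714).

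Gene-end sites called in all 8 libraries and lost gene-end sites differed less. CHD7 was called at 43.0% to 64.9% of the 365 lost sites without CM, and at 40.5% and 52.3% with it. The log2 odds ratio of kept against lost sites averaged 0.31 ± 0.25 (SD, n = 8) and was above 0 in 8 of 8 libraries (exact sign-flip permutation p = 0.00781; adjusted p = 0.0234). The kept sites were wider, with a median of 556 bp against 385 bp. When CHD7 was looked for only in the 400 bp around each site's centre, a setting added after the data were seen, the ratio was 0.14 (exact permutation p = 0.234), and it was 0.15 without CM +Dox RUNX1 replicate 2 (exact permutation p = 0.0703). The ratio was larger, 1.01 (exact sign-flip permutation p = 0.00781), with every list cut to equal length, which changes both sets of sites. It missed 0.05 when 0.5 of the shorter interval had to overlap (0.18), with 500 bp windows (0.083) and with the higher-scoring peaks (0.067).
With CM the ratio was 0.53 and 0.78, above all 6 others, a difference of 0.46 (exact permutation p = 0.0357; adjusted p = 0.0643).

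Genes with such a site had CHD7 at their ends far more often than genes without RUNX1. Of 21883 protein-coding genes, 2254 (10.3%) had a RUNX1 site called in all 8 libraries at an end, and 15074 had no RUNX1 peak there in any library. CHD7 was called at the ends of 56.8% to 75.8% of the former and, on average, 7.22% ± 1.85 (SD, n = 8) of the latter. The log2 odds ratio averaged 4.63 ± 0.21 (SD, n = 8) and was 4.29 to 4.93 over the libraries (exact sign-flip permutation p = 0.00781; adjusted p = 0.0234). Neither set of genes was matched on expression or chromatin state, whose part was not tested.

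**Figure D3:**
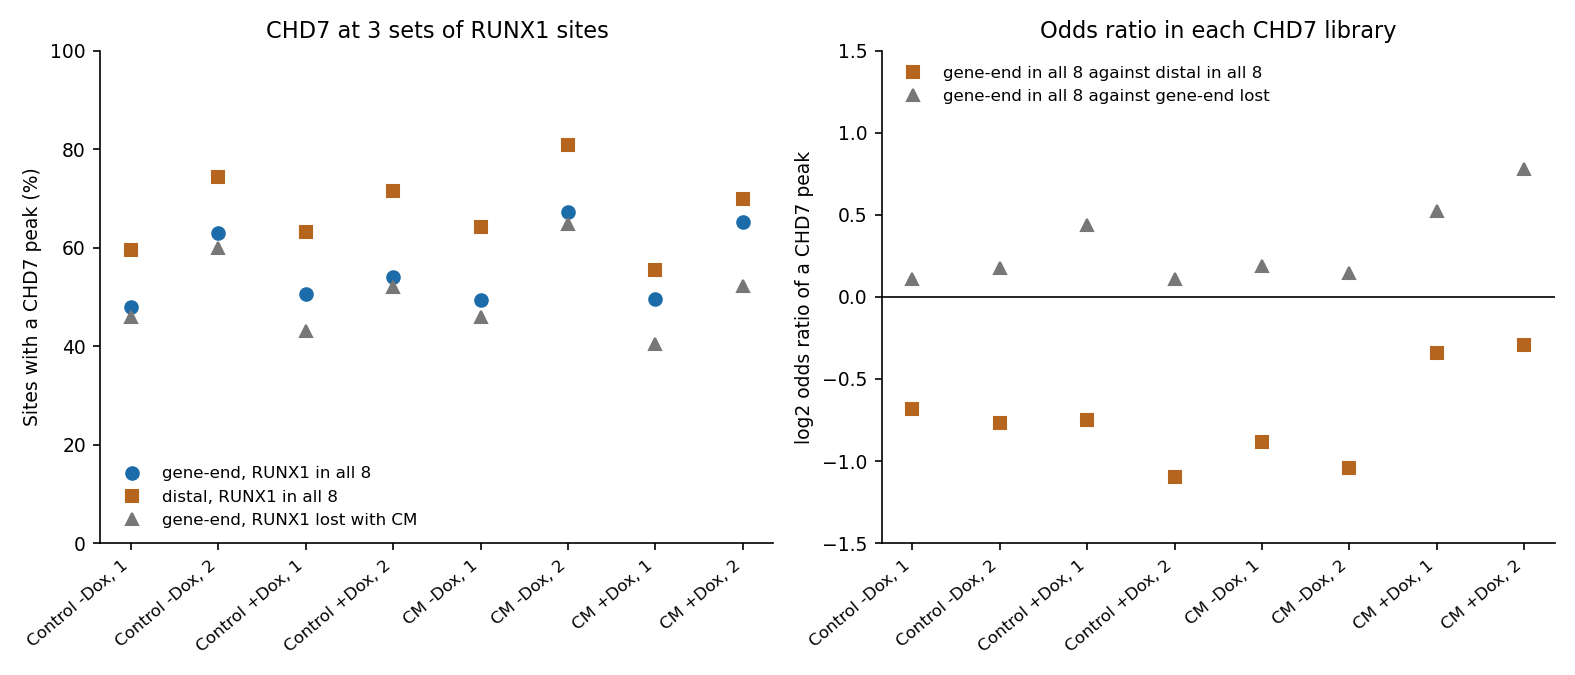
Left, percent of sites with a CHD7 peak (y axis) in each CHD7 library (x axis, condition and replicate) for gene-end sites with RUNX1 in all 8 libraries, distal sites with RUNX1 in all 8 and lost gene-end sites. Right, log2 odds ratio of a CHD7 peak at the first set against each of the others; the distal comparison is below 0 in all 8 libraries and closest to 0 in the 2 CM +Dox libraries, at -0.34 and -0.29.

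Site by site, CHD7 was called in all 8 CHD7 libraries at 508 of the 1912 sites (26.6%, Wilson 95% interval 24.6% to 28.6%, counting error only), against 15.1% of all RUNX1 sites and 35.0% of the distal ones called in all 8. No CHD7 library called 285 of them (14.9%), against 25.7% of all RUNX1 sites and 7.43% of those distal ones. For the lost gene-end sites these 2 shares were 23.3% and 17.8%. Of 571 sites with CHD7 in the 6 libraries without CM, both CM +Dox libraries called 508 (89.0%), against 80.3% of all RUNX1 sites with CHD7 in those 6 and 1022 of 1266 (80.7%) of the distal ones. Among lost gene-end sites it was 85 of 99 (85.9%), so a high share was not particular to sites that kept RUNX1. These differences were not tested. CHD7 was lost with CM (called in those 6 and in neither CM +Dox library) at 9 sites (0.471%), below the 0.946% of all RUNX1 sites, at 65 of 2921 distal sites (2.23%) and at 3 of 365 lost gene-end sites (0.822%). It was gained (called by both CM +Dox libraries and no other) at 4 sites (0.209%), against 0.582% of all RUNX1 sites.

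The strongest CHD7 peaks on these sites were at Dhx8, Rnf216, Nus1, Zkscan14 and Ube2z. Dhx8 encodes an RNA helicase of the spliceosome, and its start (chr11:101732607-101733271) held a CHD7 peak ranked 100 in all 8 lists after rounding. RUNX1 at the same site ranked only 71.6 and 68.2 in Control -Dox, 69.0 and 68.3 in CM -Dox, 81.7 and 77.0 in Control +Dox and 71.4 and 28.5 in CM +Dox. At the start of Nus1 (chr10:52417305-52417637), whose promoter with a RUNX match is printed above, the CHD7 rank was 99.9 or 100 and the RUNX1 ranks were 73.7 and 58.7 in Control -Dox, 59.6 and 52.1 in CM -Dox, 74.7 and 65.8 in Control +Dox and 61.1 and 42.6 in CM +Dox. Ube2z, a ubiquitin-conjugating enzyme, had a mean CHD7 rank of 99.9 and a mean RUNX1 rank of only 35.0. The mean RUNX1 ranks of these 5 sites ran from 35.0 to 71.8.

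The sites with no CHD7 call in any library included RUNX1 peaks of high rank. The start of Msh6 (chr17:87974542-87975093), the promoter with 5 GC boxes printed above, had RUNX1 ranks of 97.9 and 97.7 in Control -Dox, 96.3 and 96.9 in CM -Dox, 98.8 and 97.3 in Control +Dox and 97.0 and 94.0 in CM +Dox. Only CM +Dox replicate 2 lies below the 6 values without CM. Camta1, which encodes a calmodulin-binding transcription activator, Erich1, Magix and Papln followed, with mean RUNX1 ranks of 92.4, 91.9, 91.0 and 90.7. At Papln the mean rank was 94.9 without CM and 78.1 with it.

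CHD7 was lost with CM at 9 sites, of which the 5 of highest CHD7 rank lay at 4930503B20Rik, Slc25a39, Ppp4c, Rpl36al and Ogg1. Slc25a39 encodes a mitochondrial glutathione carrier, Ppp4c the catalytic subunit of protein phosphatase 4 and Ogg1 the glycosylase that removes oxidised guanine. The site near the start of 4930503B20Rik (chr3:146686439-146686909) had CHD7 ranks of 80.8 and 96.0 in Control -Dox, 88.2 and 86.7 in CM -Dox, 85.2 and 96.5 in Control +Dox and no peak in CM +Dox, and its mean RUNX1 rank was 98.9 without CM and 82.4 with it. At Ogg1 (chr6:113326659-113327210) the CHD7 ranks were 19.0 and 70.9 in Control -Dox, 15.6 and 60.6 in CM -Dox, 0.325 and 86.3 in Control +Dox and no peak in CM +Dox, while the mean RUNX1 rank was 51.0 without CM and 81.6 with it. RUNX1 rank and CHD7 calls thus did not move one way at these 5 sites. CHD7 was gained at Clptm1l, Garnl3, Paqr7, a membrane progesterone receptor, and Nt5dc3. The CHD7 ranks with CM were 57.8 and 60.0 at Clptm1l, 63.1 and 36.3 at Garnl3, 11.1 and 58.9 at Paqr7 and 57.8 and 0.737 at Nt5dc3, so none of the 4 was a strong CHD7 peak.

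CHD7 went with the direction in which the RUNX1 rank differed. At the 757 sites ranked lower with CM, CHD7 was called at 65.3% ± 7.76 (SD, n = 6) without CM and 56.5% and 72.1% with it. At the 1155 sites ranked higher it was called at 48.7% ± 8.01 and 52.9% ± 11.2. The gap was 15.4 to 17.4 percentage points in the 6 libraries without CM, and 11.5 and 11.3 in CM +Dox. It was not tested, since the split was made after the data were seen. CHD7 was called in all 8 libraries at 272 (35.9%) of the sites ranked lower and 236 (20.4%) of those ranked higher, whose median widths were 538 and 574 bp. By the level of the RUNX1 rank there was no such order: the lowest, middle and highest of 3 equal groups of sites had CHD7 at 57.9%, 50.3% and 57.7% without CM.

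Lists of genes for the machinery of transcription and splicing had the largest shares of genes with a site. A list is given as the number of its genes with a site at an end, against 10.3% of all protein-coding genes. The 20 lists were chosen with earlier results of these data known and were not matched on expression or on having any RUNX1 peak. Genes with no RUNX1 peak at an end in any library were 68.9% of all protein-coding genes. They were 2 of 48 for splicing factors and 13 of 62 for RNA polymerase II, its general factors and Mediator. For cytosolic ribosomal proteins they were 13 of 76, and for stem and progenitor transcription factors 16 of 30. The shares below therefore also reflect how many genes of a list had any RUNX1 peak. Of 763 genes, 761 were found in the gene table. A window can hold a neighbouring gene's promoter too.

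For RNA polymerase II, its general factors and Mediator, 24 of 62 genes (38.7%) had a site, with a median RUNX1 rank of 58.8 against 59.0 over all genes with one. Polr2g, a polymerase subunit, had RUNX1 ranks of 93.8 and 91.9 in Control -Dox, 97.6 and 96.4 in CM -Dox, 95.7 and 89.2 in Control +Dox and 98.9 and 96.4 in CM +Dox. At its neighbour in function Polr2j, chosen after its values were seen, they were 90.5 and 81.5 in Control -Dox, 85.3 and 86.0 in CM -Dox, 88.0 and 72.5 in Control +Dox and 27.9 and 32.0 in CM +Dox. The first was high in every library and the second only without CM. Gtf2a2, Polr2d and Polr2a had mean ranks of 86.6, 76.5 and 74.3, and CHD7 in all 8 libraries. Of the 24 genes, 13 had sites ranked higher with CM and 11 lower.

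Splicing factors had sites at 18 of 48 genes (37.5%), 9 ranked higher with CM and 9 lower, and translation factors at 12 of 42 (28.6%). Prpf3, a component of the tri-snRNP, led the first with a mean rank of 72.7, and no splicing gene ranked above it. The termination factor gene Gspt1 led the second at 92.0. Its site (chr16:11254015-11254618) had RUNX1 ranks of 98.1 and 96.9 in Control -Dox, 97.7 and 96.5 in CM -Dox, 98.6 and 95.0 in Control +Dox and 74.6 and 78.3 in CM +Dox. Eif4a1, the helicase of translation initiation, had a mean rank of 85.1 that differed by 0.327 with CM. At Eif3g (chr9:20898480-20898850) the ranks were 95.9 and 90.6 in Control -Dox, 92.1 and 88.3 in CM -Dox, 96.8 and 92.3 in Control +Dox and 46.3 and 35.2 in CM +Dox, with CHD7 in all 8 libraries. Cytosolic ribosomal protein genes had sites at 14 of 76 (18.4%), with Rps9 the highest at a mean rank of 81.2 (49 bp from its end), and mitochondrial ones at 10 of 75 (13.3%). For proteasome subunits it was 6 of 34 (17.6%), of which 5 ranked higher with CM, and for respiratory complex I 5 of 36 (13.9%).

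DNA replication genes had sites at 12 of 42 (28.6%), DNA repair genes at 9 of 34 (26.5%) and cell cycle and p53 pathway genes at 8 of 33 (24.2%). The Orc5 site (chr5:22549710-22550757), over the promoter in which RUNX and ETS letters lie side by side, had RUNX1 ranks of 96.0 and 93.2 in Control -Dox, 94.7 and 92.7 in CM -Dox, 97.7 and 92.6 in Control +Dox and 95.5 and 94.4 in CM +Dox and CHD7 in all 8 libraries. Its rank differed by 0.454 with CM. Gins2 and Pold1 followed at 81.3 and 79.3. In DNA repair Msh6 was followed by the checkpoint kinase gene Atr at 87.3 and by Xrcc3 at 79.4, with CHD7 in 1 and none of the libraries. No DNA repair gene had CHD7 in all 8. Bax, the pro-apoptotic BCL2 relative, led the p53 list with ranks of 99.6 and 99.0 in Control -Dox, 99.4 and 99.2 in CM -Dox, 99.6 and 99.4 in Control +Dox and 74.5 and 65.3 in CM +Dox. This site lay 303 bp from the end of Bax, not at its start, and also in a window of Ftl1. Mdm2 and Mdm4, which encode inhibitors of p53, had mean ranks of 78.1 and 78.2, and Trp53 itself, named after its values were seen, 53.1 with CHD7 in all 8.

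The transcription factor genes of stem and progenitor cells had sites at 8 of 30 (26.7%), and their median rank of 83.2 was the highest of the lists with more than 1 such gene. Runx1 (chr16:92825590-92826432) had ranks of 98.6 and 97.6 in Control -Dox, 98.1 and 97.9 in CM -Dox, 98.6 and 97.4 in Control +Dox and 91.6 and 92.5 in CM +Dox and CHD7 in 7 libraries. Nfe2, a factor of the megakaryocyte and erythroid lineages, had a mean rank of 96.5, and Spi1, which encodes PU.1, 93.1. Both ranked higher with CM, by 3.68 and 4.08. Zfpm1, the GATA1 cofactor gene, followed at 83.4 with no CHD7. Runx3, and Meis1 and Lyl1, which were named after their values were seen, had ranks that differed by -31.2, -33.0 and -33.4 with CM, so 4 of the 8 ranked higher and 4 lower. None of the 8 had CHD7 in all 8 libraries. Runx2, Cbfb and Chd7 had no such site at an end.

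Apart from the stem and progenitor list above, the lists of lineage genes had shares near or below that of all protein-coding genes. The myeloid list had 2 of 34 (5.88%), Cebpd at a mean rank of 82.5 and Fcgr1 at 36.0. The megakaryocyte, mast cell and erythroid list had 3 of 29 (10.3%, the share of all protein-coding genes), Itga2b, the platelet integrin, at 88.2, Pf4 at 62.3 and Tfrc at 25.9. The lymphoid list had 1 of 21, Cd3d at 95.6 (128 bp from its end), and the neural crest (16 genes) and liver (14) lists had none. With windows of 2 kb the first and second of these lists had 4 and 5 genes. Genes with no RUNX1 peak at an end in any library were 23 of 34 in the myeloid and 19 of 29 in the megakaryocyte, mast cell and erythroid list. Both shares are close to the 68.9% of all protein-coding genes. In the lymphoid, neural crest and liver lists they were 20 of 21, 16 of 16 and 12 of 14. Cytokine signalling had 9 of 44 (20.5%), led by Sh2b3, which encodes the adaptor LNK, at 86.9. Immediate-early genes had 6 of 27 (22.2%), with Ier3 at 94.7 (a site nearest to Flot1), Dusp6 at 92.6 (711 bp from its end) and Jund at 88.4. Chromatin remodellers had 7 of 30 (23.3%), with Chd4 at 81.1 (a site nearest to Nop2) and Smarcd2 at 72.2, and leukaemia-mutated epigenetic regulators 5 of 34 (14.7%). Kmt2d, a histone methyltransferase gene of that last list, had ranks of 97.8 and 95.4 in Control -Dox, 97.0 and 96.0 in CM -Dox, 97.6 and 94.6 in Control +Dox and 95.9 and 96.0 in CM +Dox, high in every library. This site lay over the end of Kmt2d and also in a window of Prkag1.

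**Figure D4:**
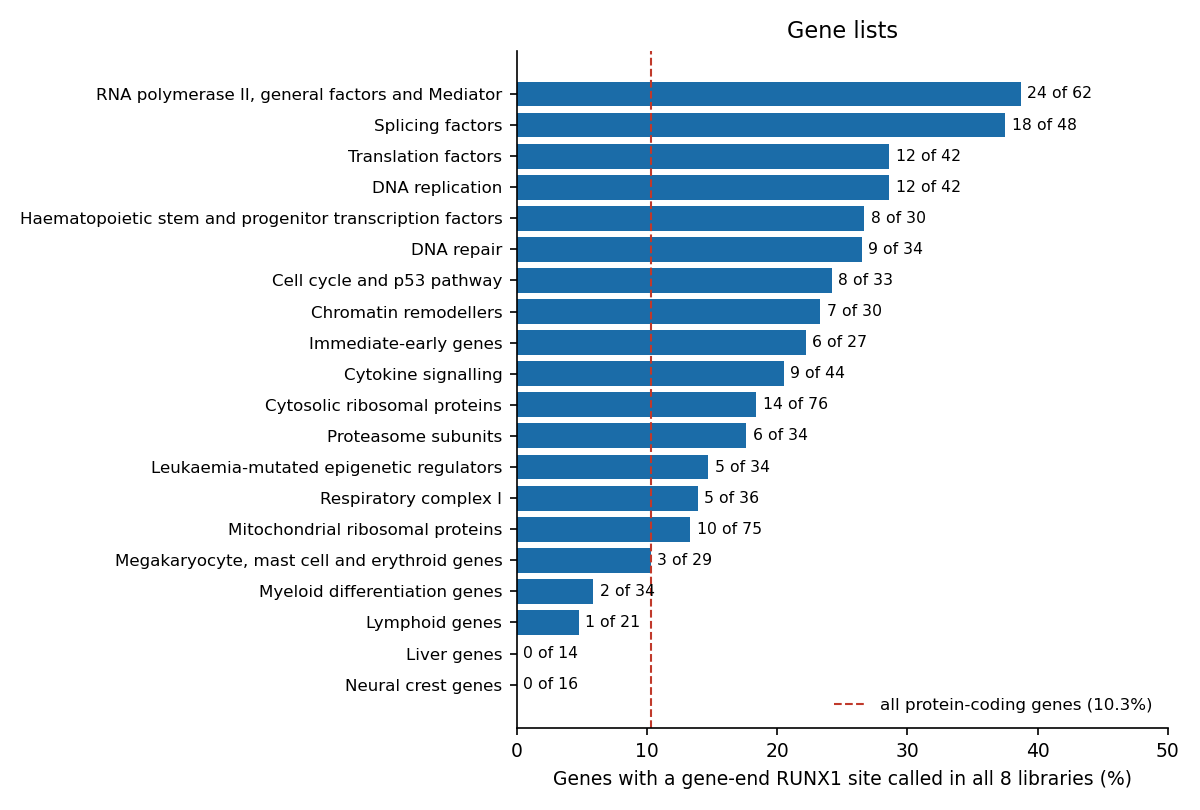
Percent of the genes of each list (x axis) with a RUNX1 site called in all 8 libraries at an end, with the numbers of genes beside each bar. The dashed line marks 10.3%, the share of all protein-coding genes; RNA polymerase II with its factors (38.7%) and splicing factors (37.5%) reach furthest past it, and the myeloid (5.88%) and lymphoid (4.76%) lists fall short of it.

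Most of the sites lay at gene starts, as did most gene-end RUNX1 sites. Of the 1912, 1448 (75.7%) overlapped only start windows, 88 only end windows and 100 (5.23%) both, and 276 lay at genes whose strand the promoter table does not give. Of all 6498 gene-end sites, 71.3% overlapped only start windows, 7.02% only end windows and 5.08% both. A gene boundary lay inside 1585 sites (82.9%, Wilson 95% interval 81.1% to 84.5%), against 216 of 365 lost sites (59.2%, 54.1% to 64.1%) and 71.5% of all gene-end sites. The centre lay within 250 bp of a start in the promoter table at 1226 of 1882 kept (65.1%) and 179 of 358 lost sites with such a start on their chromosome, and at 61.3% of all gene-end sites with one. Head-to-head gene pairs, such as Rpl36al and Mgat2, lay at 156 sites (8.16%, 7.01% to 9.47%) at 16 lost sites (4.38%) and at 6.91% of all gene-end sites. These intervals cover counting error only, and the differences were not tested. CHD7 shares at start-only and end-only sites were 55.1% ± 7.59 and 60.6% ± 14.0 (SD, n = 6) without CM.

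Some genes with a kept site also had a lost one. A lost RUNX1 site lay in the body or within 5 kb of 208 of the 2254 genes (9.23%), against 1621 (7.41%) of all protein-coding genes. Many of the latter had no RUNX1 site that could be lost. Among 3279 genes without a kept gene-end site but with a site called in all 6 libraries without CM, 1413 (43.1%) had a lost one. That share cannot be set against the 9.23%, because of how the sets were made. The 2254 genes entered by a kept site and needed no other, while the 3279 needed a site and had none kept at an end. Runx1 itself had 9 sites called in all 6 libraries within that range, of which 3 were lost and 1 was a kept gene-end site. The sites were uneven over the genome: genes with one made up 113 of the 705 of chromosome 19 and 15.2% of those of chromosome 5, but 4.35% on chromosome 14 and 1.24% on X, where 12 of 966 genes had one.

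The promoter letters of the sites were read in 300-base windows, from 250 bases before to 50 after each RefSeq start, taken where a site covered at least 150 bases. The kept sites covered 1743 windows of 1580 genes and the lost sites 218. GC box letters were in 78.9% of the kept windows (Wilson 95% interval 77.0% to 80.8%), in 50.5% of the lost ones (43.9% to 57.0%), in 74.1% of the 5328 windows under any RUNX1 site and in 46.2% of all 21262 coding-gene windows. RUNX letters were in 28.5% (26.4% to 30.7%) of the kept, 39.9% (33.6% to 46.5%) of the lost, 25.2% of the windows under any RUNX1 site and 21.6% of all coding-gene windows. TGTGGT alone, the RUNX letters without a CG, were in 13.5% of the kept, 22.9% of the lost, 13.5% of those under any RUNX1 site and 15.0% of all coding-gene windows, so the kept share was not above that of all windows for these letters. ETS letters were in 28.2% of the kept and 30.7% of the lost, against 26.8% under any RUNX1 site and 11.6% of all coding-gene windows. TATAAA was in 5.34% and 6.42%, against 5.61% and 12.6%. The median number of CG dinucleotides per window was 25 in the kept, 21 in the lost, 24 under any RUNX1 site and 13 in all coding-gene windows. The windows under any RUNX1 site include the kept and the lost ones, so these sets are not separate. The kept shares of GC box and RUNX letters lay somewhat above those under any RUNX1 site (intervals 72.9% to 75.3% and 24.0% to 26.4%). Their ETS and TATAAA shares were closer to that set. In the lost windows GC box letters were less common, and RUNX letters more common, than in either.

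Among the kept sites the same letters separated those whose RUNX1 rank was lower with CM from those whose rank was higher. RUNX letters were in 40.7% (37.0% to 44.4%) of the windows under sites ranked lower and in 20.9% (18.6% to 23.5%) under sites ranked higher. The first share lies within the interval of the lost sites. TGTGGT alone was in 18.8% (16.1% to 22.0%) and 10.2% (8.57% to 12.2%), the latter below the 15.0% of all coding-gene windows. GC box letters were in 69.1% (65.5% to 72.4%) and 85.1% (82.8% to 87.1%). The median count of CG dinucleotides was 24 and 25 and the median GC content 62.3% and 64.7%, and the windows were not matched on either. ETS letters were in 33.8% and 24.7% and CCAAT in 42.2% and 52.5%. Parl and Eif3g, with a RUNX match and no GC box in the runs printed above, belong to the sites ranked lower, and Cdv3 with 7 GC boxes to those ranked higher. Others went the other way: Msh6, with 5 GC boxes and no RUNX match, differed by -1.97 points in rank, and Orc5, with a RUNX match, by 0.454. RUNX letters were in 37.8% of the windows under the sites of highest RUNX1 rank when the sites were cut into 3 equal groups, 25.3% in the middle group and 23.4% in the lowest. All motifs were sought on both strands; the GC box, ETS and TGCGGT letters each hold a CG, matches of different motifs can overlap, windows of 1 gene can overlap, and these differences were not tested.

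**Figure D5:**
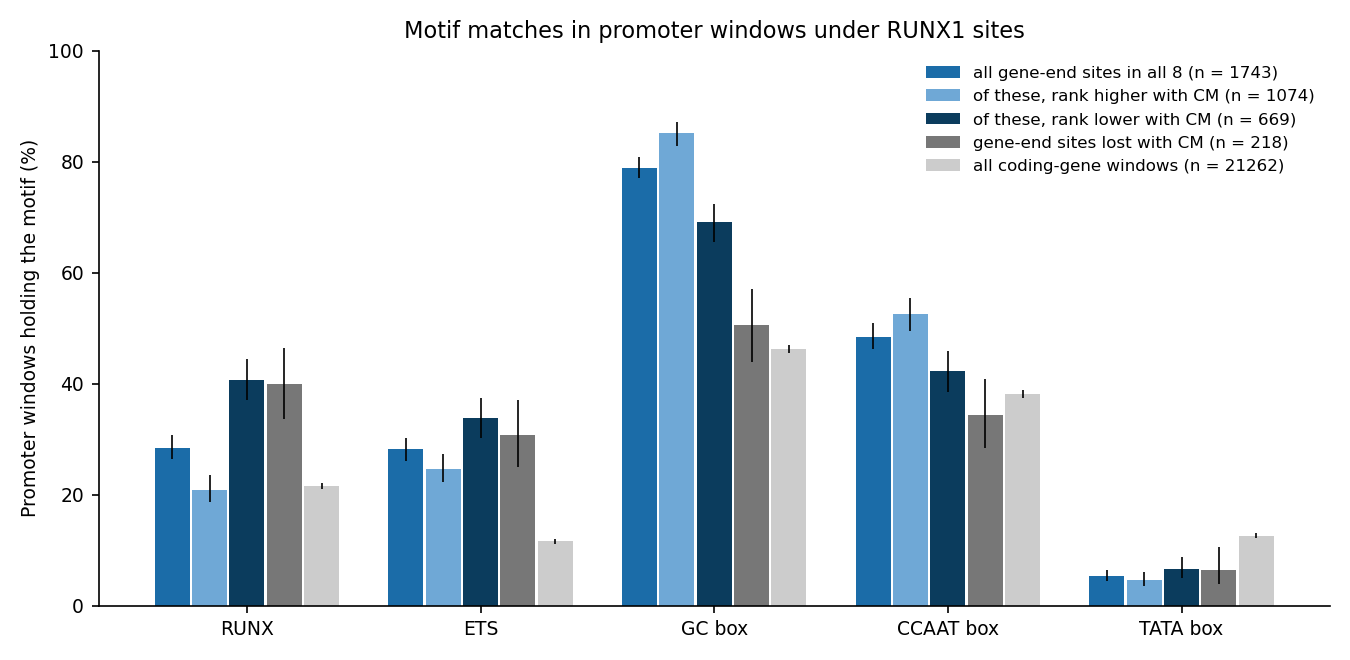
Percent of 300-base promoter windows (y axis) that hold each motif (x axis) under gene-end sites called in all 8 libraries, those of them with a higher or lower RUNX1 rank with CM, lost gene-end sites and all coding-gene windows. Error bars are Wilson 95% intervals, which cover counting error only. The RUNX bar of the sites ranked lower (40.7%) is near that of the lost sites (39.9%), while their GC box bars (69.1% and 50.5%) are further apart.

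Windows with CHD7 differed as well. Where CHD7 was called in all 8 libraries (469 windows), ETS letters were in 37.5% (33.3% to 42.0%) and GC box letters in 68.0% (63.7% to 72.1%). Where no library called it (258 windows), they were in 19.4% (15.0% to 24.6%) and 86.0% (81.3% to 89.7%). RUNX letters were at 30.9% and 29.8%, with intervals that overlap. YY1 letters AAGATGGC were in 6.66% of all kept windows, 6.38% of those under any RUNX1 site and 3.05% of all coding-gene windows, and GATA letters AGATAA in 4.53%, 5.11% and 9.65%. A match is a description of letters and no evidence of binding by the factor.

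Values on either side of the rule's limits were as follows. The sites nearest inside the 1 kb limit lay 999 bp from the end of Erbb2 and 997 bp from the start of Kat6b, with mean RUNX1 ranks of 62.6 and 79.5. The nearest outside lay 1003 bp from Tubb5 and 1007 bp from Nfic, with mean ranks of 60.3 and 75.3. There were 18 sites whose boundary was over 900 and up to 1000 bp away, and 30 distal sites called in all 8 between there and 1100 bp. Of the 701 gene-end sites called in 7 libraries, 326 were missed by a CM +Dox library.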

How the data were processed

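Every library has a peak list of its own. Bowtie2 2.0.6 and MACS2 2.0.10 were run on mm10, per the submitters' processing notes; the background library and read filters are not stated there. Each peak's score, as deposited by the authors, is a −log10 p-value, read from the list ends, which match the thresholds in the peak names; it ranks or filters peaks inside 1 list only. Peaks off chromosomes 1 to 19, X and Y were left out, and a site counted as called where a peak overlapped it by 1 bp. Gene positions (21883 protein-coding genes) and promoters (21262 windows of 17491 genes, none on chromosome 18) came from RefSeq tables of GRCm38.p6, so exons, introns and UTRs were not used here. The members and gene lists were chosen with earlier results of these data known.

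Tests used 1 value per library. CM +Dox was compared with the other 6 libraries by an exact permutation test over 28 choices, pairs of conditions over 6 choices, and log2 odds ratios with 0 by sign flips over 256 patterns, all two-sided, with Benjamini-Hochberg adjustment over 9 tests. Scripts ran in Python 3.11.15 with numpy 2.4.6, pandas 2.3.3 and scipy 1.17.1 and were tested on simulated data. Depth is unknown.

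Sites were named by this rule, each by its nearest gene boundary: the 10 of highest mean RUNX1 rank; the 5 of highest CHD7 rank with CHD7 in all 8 libraries; the 5 of highest RUNX1 rank without CHD7; up to 5 each where CHD7 was lost or gained; the 5 largest differences of RUNX1 rank in each direction; up to 4 genes per list; 2 on each side of the 1 kb limit; and Runx1, Runx2, Runx3, Cbfb and Chd7. Alternatives were higher-scoring peaks, lists of equal length, a common RUNX1 threshold of 1e-09, an overlap of 0.5, windows of 500 bp and 2 kb, site centres, 1 added to each count, each library left out and a replicate block.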

Additional observations from a re-analysis of the deposited data

How the results depend on the processing

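The number of sites was 369 without the peaks scored below their antibody's median and 856 with lists of equal length, and 1912 to 2149 when each library was left out. With the higher-scoring peaks the odds ratio of CHD7 at kept against lost sites was 0.0671 (exact permutation p = 0.352), its difference with CM 0.278 and that of the gene-end against distal ratio 0.378 (exact permutation p = 0.0714 for both), and Control +Dox exceeded Control -Dox by 0.271 points. With lists of equal length the CHD7 share differed by -6.52 points with CM and by -0.467 between CM -Dox and Control -Dox, the CHD7 rank by -3.76, and the kept against lost ratio by 0.494 with CM (exact permutation p = 0.0714). The kept against lost ratio itself was 1.01 with lists of equal length (exact sign-flip permutation p = 0.00781). It was 0.176 with an overlap of 0.5, 0.0825 with 500 bp windows and 0.135 in 400 bp around the centre, the last chosen after seeing the data. The cause was not tested. The common threshold of 1e-09, windows of 2 kb, site centres and 1 added to each count changed none of the 9 tests' directions or calls.

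Leaving out each library gave ranges of -5.72 to 10 points for CHD7 with CM against the rest, -6.07 to 11.8 for CM -Dox against Control -Dox and -10.6 to 4.37 for Control +Dox against Control -Dox. The ranges were -0.868 to -0.527 for gene-end against distal sites and 0.507 to 0.590 for its difference with CM, 0.147 to 0.420 for kept against lost sites and 0.332 to 0.584 for its difference with CM, 4.49 to 4.68 for genes with a site against genes without RUNX1, and -2.40 to 7.33 for the CHD7 rank. Without either CM +Dox CHD7 library the smallest possible p is 0.143, so calls with CM could not be made.

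Replicate numbers were not taken to pair the libraries, since no label says what they share and not every correlation was over 0.1. Same-numbered CHD7 libraries of different conditions had correlations of their deviations of 0.0224 to 0.134 over 1912 sites, all above 0. Replicate 2 had the higher CHD7 share in all 4 conditions. Peak names began with BG370 to BG380 in the replicate 1 lists of both antibodies and with BG381 to BG388 in the replicate 2 lists. What these names stand for is not stated, and whether replicate numbers mark a batch was not tested. With the replicate number as a block the values were the same, -0.732, 0.309 and 4.63 for the ratios tested by sign flips (exact permutation p = 0.125, the smallest possible) and 0.552 and 0.458 for the differences with CM (exact permutation p = 0.0625, the smallest possible), so a block cannot reach 0.05. Of 691 other values, mostly counts of genes per list, 628 stayed within 1.5 times or their interval and 63 did not.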
